A study of Mus musculus with 8 samples.

Results

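Here, 8 genes that build and tune the axon initial segment were followed in single interneurons of the mouse cortex. They are the scaffold genes Ank3 (ankyrin G), Sptbn4 (beta IV spectrin), Nfasc (neurofascin) and Nrcam (NrCAM), and the intracellular fibroblast growth factor (FGF) genes Fgf11, Fgf12, Fgf13 and Fgf14. They were chosen by symbol, as 8 of the 23335 gene names in the deposited count table, and all rows that carry the same gene name were added up. Under their own symbols 7 of the 8 are listed, and Sptbn4 stands in the table as Spnb4, which the RefSeq gene table (GRCm38.p6) gives as a synonym of Sptbn4. Together they hold 16 rows of the table's 27207, and 7 of the 8 had a count.

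The axon initial segment is the stretch of axon next to the cell body where action potentials start and where axonal and somatic membrane are kept apart. Ankyrin G is its master organiser: it binds voltage-gated sodium channels, neurofascin and NrCAM, and beta IV spectrin ties this complex to the actin cytoskeleton. The intracellular FGFs, unlike the secreted FGFs, stay inside the cell, bind the cytoplasmic tail of sodium channels and shape their inactivation. Chandelier cells are known for placing their synapses on the initial segment of pyramidal neurons, whereas the genes described here are those of the interneurons' own axons.

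The study counted messenger RNA molecules of single cells with varietal tags (unique molecular identifiers, UMI) in 8 library batches of frontal cortex neurons that were picked by hand for red fluorescence. Chandelier cells (ChC) came from Nkx2.1-CreER; Ai14 mice given 150 µl of 20 mg/ml tamoxifen at E17.5, with batches 1 and 2 from animal 1 (postnatal day 31) and batches 3 and 4 from animal 2 (postnatal day 32). Parvalbumin cells (Pv) came from Pv-ires-Cre; Ai14 mice, with batches 5 and 6 from animal 3 (postnatal day 29) and batches 7 and 8 from animal 4 (postnatal day 35). The titles also call all mice WT, which the labels do not explain beside these genotypes. All 4 animals are labelled female, and the Ai14 reporter is shared by both groups. The induction text also stands in the labels of the Pv batches, whose genotype names no CreER. The ChC label rests on lineage and time of induction and the Pv label on the driver gene, and neither sort used a second marker. Each cell type had its own mouse line and its own flow cell, so effects of the type, of the line and of the flow cell cannot be told apart.

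Of 128 cell columns, 126 held a UMI, 63 of each type, and 0 cells shared an identical column with another cell. The ChC batches 1 to 4 held 527743, 657957, 2898413 and 1307666 UMI, and the Pv batches 5 to 8 held 456458, 501563, 370238 and 921212 UMI. Cells differed widely in depth, from 1053 to 606191 UMI in ChC (median 39200) and from 2325 to 108081 UMI in Pv (median 27116). Levels are given below as UMI per 1000000 UMI of a batch (CPM), scaled between batches, with the SD over the 4 batches of a type. Batches labelled as 1 animal were not taken as independent, so the test compared 2 ChC animals with 2 Pv animals.

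The labels were checked against marker lists before the genes were described. The 8 GABAergic markers summed to between 4258 CPM (batch 7) and 10240 CPM (batch 2). Erbb4 had the highest mean over all 8 batches (2716 CPM). In Pv batches the mean of Slc32a1, the vesicular GABA transporter, was higher (1899 against 1511 CPM), and Slc32a1 had a UMI in all cells. Erbb4, a neuregulin receptor of these interneurons, was at 3920 ± 731 CPM (SD, n = 4) in ChC and 1511 ± 248 CPM in Pv batches without overlap, as were 2.62% of all genes tested with ChC higher. Pvalb, which encodes parvalbumin and drives the Pv line, was at 119 ± 46.5 CPM in ChC and 917 ± 438 CPM in Pv batches (SD, n = 4 each), also without overlap, as were 1.6% of all genes tested with Pv higher. Sst had 1 UMI over all cells and Vip had 0. A row that lacks its 3′ end can give such counts, so these alone do not show that Sst or Vip cells were absent. Cck, a marker of other interneurons, was at 148 ± 140.5 CPM in ChC and at 177 ± 112 CPM in Pv (SD, n = 4 each). Npy, another such marker, had 0, 44, 2 and 466 UMI in ChC batches 1 to 4 and 0, 0, 0 and 444 UMI in Pv batches 5 to 8, so nearly all of it came from batches 4 and 8.

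Markers of cells that the sort should lack were also found. The 7 pyramidal markers summed to 44.8, 469, 57.4 and 816 CPM in ChC batches 1 to 4 and to 491, 972, 1289 and 149 CPM in Pv batches 5 to 8, with Camk2a most abundant and Neurod6, Tbr1 and Slc17a6 at 0. The 7 astrocyte markers summed to 55.5, 449, 321 and 973 CPM in ChC and to 107, 52.9, 1202 and 359 CPM in Pv, with Slc1a2 ahead of Slc1a3 and Gfap at 0. The 7 oligodendrocyte markers summed to between 9.55 and 256 CPM, with Mag and Mobp at 0. Mbp had the highest mean over all 8 batches and Cnp the next, while in Pv Cnp was ahead (72.7 against 69.5 CPM). Sums over the microglial (P2ry12 ahead of Csf1r, with C1qa and Tmem119 at 0), endothelial (Flt1 ahead of Pecam1, with Cldn5 and Ly6c1 at 0) and precursor (Pdgfra, with Cspg4 at 0) lists stayed at or under 90.4, 21.2 and 28.7 CPM in each batch. Their part in the levels of the 8 genes was not tested.

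The counts of batch 6 are at odds with its label of female, though not in every gene. Xist, the RNA that coats the inactive X chromosome of females, had 48, 223, 2358 and 597 UMI in batches 1 to 4, 129 UMI in batch 5, 0 UMI in batch 6, and 82 and 207 UMI in batches 7 and 8. The Y-linked gene Kdm5d had 25 UMI in batch 6 and 71 UMI in batch 3, against 0 or 1 UMI in each of the other 6 batches. Batch 3 had both genes. The other Y-linked genes did not set batch 6 apart, since Ddx3y (4 UMI, 8.47 CPM) and Uty (5 UMI, 10.6 CPM) had UMI in all 8 batches, from 7.96 to 25.5 CPM and from 5.13 to 25.05 CPM, and Eif2s3y had 2 UMI in batch 3 and 0 in the others. The sex of batch 6 is therefore not settled here. Batches 5 and 6 are labelled as animal 3, and batches 3 and 4 as animal 2. Yet batches 5 and 6 differ in Xist and Kdm5d, and batches 3 and 4 in Kdm5d, while cells of 1 animal should not differ in sex. Npy, which is not a sex marker, also differed between batches of 1 animal, with 2 and 466 UMI in batches 3 and 4 and 0 and 444 UMI in batches 7 and 8. Whether the labels or the libraries account for such differences was not tested. The test over animals rests on these labels. Levels and fits of the members and their count without overlap are therefore given with and without batch 6, as are the shares of Fgf13 and Nrcam, and levels of Nrcam, Fgf12 and Fgf13 also without batch 3. All other results include both batches.

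UMI of 7 of the 8 genes were found in both cell types and in every batch, with as few as 4 for Fgf13 in batch 5, and a typical cell held most of them. Markers of other cell types were also found, so a UMI alone does not show expression. The median ChC held UMI of 7 and the median Pv cell of 6, all 7 were present in 39 of 63 ChC and 16 of 63 Pv cells, and every cell held at least 1. Ankyrin G and Fgf12 had a UMI in nearly all cells of both types, and NrCAM and Fgf13 had higher mean levels in ChC than in Pv. For none of the 7 did the 4 ChC batches and the 4 Pv batches separate (0 of 7), where 4.22% of the 9829 genes tested did so. Without batch 6 this was again 0 of 7, beside 681 in place of 415 of the 9829 genes. Fewer Pv batches separate more easily, so the rise is not read as an effect of batch 6.

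Between the animals of both types 0 of the 7 tested members passed an adjusted p of 0.05 in the quasi-likelihood test of edgeR (Benjamini-Hochberg adjustment over all genes tested), and 0 of all 9829 genes did (0%). At an unadjusted p under 0.05, 1 member (Fgf13) passed beside 616 genes, or 6.27% of those tested. Fgf13 did not pass in 8 of 21 alternatives (without animal 1, 3 or 4, without batch 1, 4, 5 or 8, and in thinned cells). Without batch 1 its unadjusted p was 0.235 in edgeR. Nrcam passed in 2 of the 21 alternatives. The fit without batch 6 and the other fits also called 0 of 7 members, where DESeq2 called 151 genes (1.54%), edgeR without the filter on low counts 80 of 16531 genes (0.484%), and edgeR with batches as samples 5 of 6481 genes (0.0771%). The median log2 fold change of ChC over Pv was 0.29 over the 7 tested members and 0.04 over all genes tested, with 5 members above 0 and 2 below. The member median was -0.21 without animal 3, -0.18 without batch 8, 0.91 without animal 4 and 0.065 in cells thinned to 10000 UMI, so its sign is not stable.

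**Figure D1:**
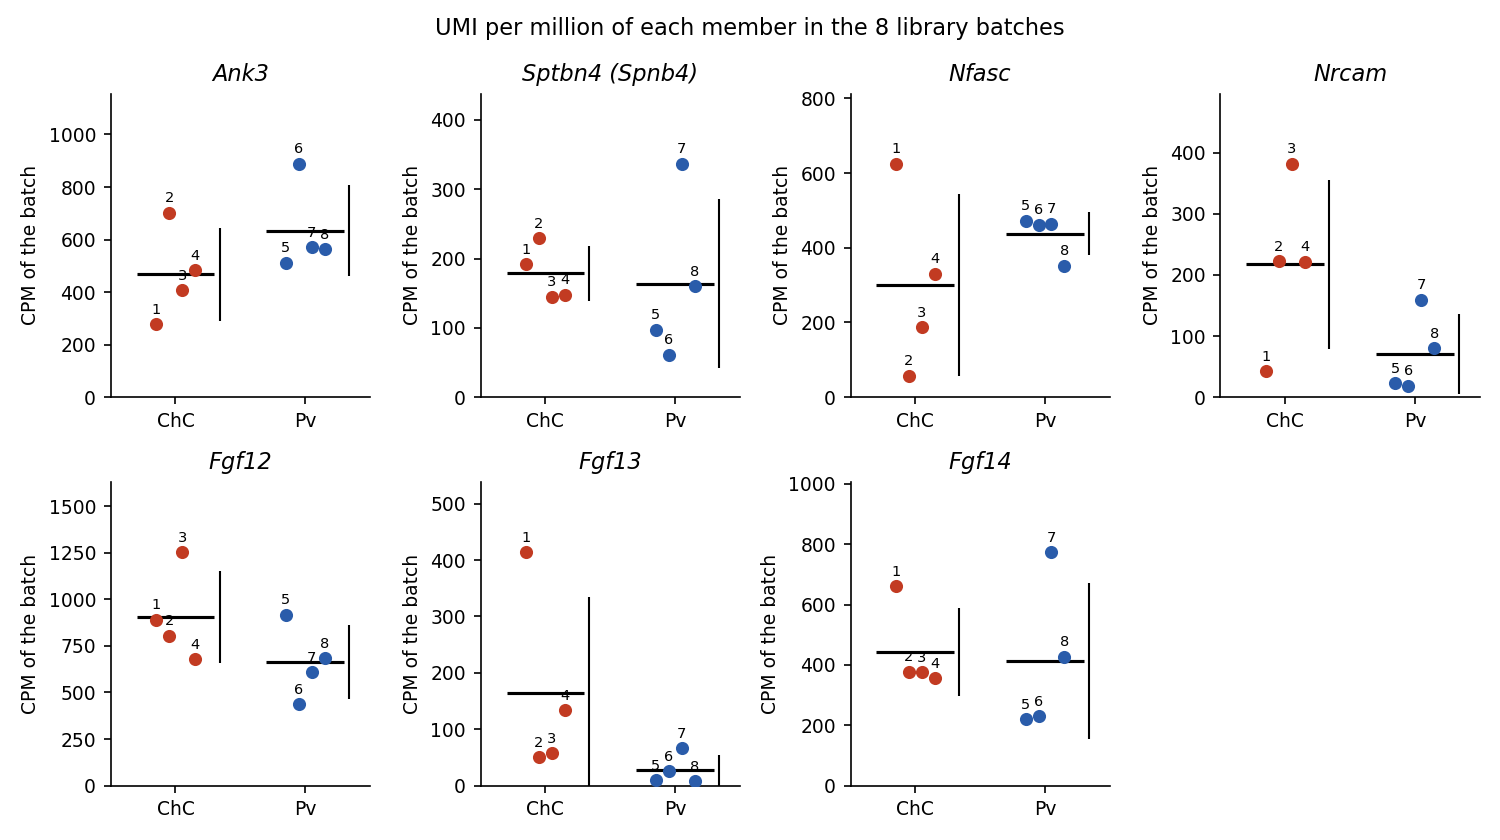
Level of each member in CPM (vertical axis) in the 4 ChC and the 4 Pv batches, 1 point per batch, with a horizontal line at the mean and a vertical line of 1 SD to either side, stopped at 0. Fgf13 and Nrcam have higher ChC means (164 against 27.2 and 217 against 70.4 CPM), and the points of both types overlap for every member with a UMI.

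Ank3, the organiser of the segment, had 277, 702, 407 and 483 CPM in ChC batches 1 to 4 and 512, 889, 572 and 563 CPM in Pv batches 5 to 8. Batch 6 stood highest (with the largest row alone batch 2, at 691 against 614 CPM in batch 6) and batch 1 lowest, and ChC batch 2 lay above 3 of the Pv batches, so the types overlapped. The means were 467 ± 178 (SD, n = 4) and 634 ± 172 CPM (SD, n = 4), and ChC over Pv had a log2 fold change of -0.43 (SE 0.54, adjusted p = 0.991 in edgeR). With batch 6 left out, the Pv mean was 549 ± 32.3 CPM (SD, n = 3) and the log2 fold change -0.22. Ankyrin G had a UMI in 61 of 63 ChC and 62 of 63 Pv cells.

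Spnb4, the spectrin that links ankyrin G to actin, had 192, 229, 145 and 148 CPM in ChC batches 1 to 4 and 97.3, 61.4, 337 and 160.1 CPM in Pv batches 5 to 8. The Pv batches of animal 3 stood lowest and batch 7 of animal 4 highest, so the ChC values lay inside the Pv range. The means were 178 ± 40.1 and 164 ± 122 CPM (SD, n = 4 each), with a log2 fold change of 0.29 (SE 0.84, adjusted p = 0.999 in edgeR). Its sign turned without animal 3 (-0.22), without batch 8 (-0.18) and in cells thinned to 10000 UMI (-0.075). Without batch 6 the Pv mean was 198 ± 124 CPM (SD, n = 3) and the log2 fold change 0.17, and the Pv mean was 106 CPM without batch 7.

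Neurofascin, the adhesion molecule through which the segment meets inhibitory synapses and the extracellular matrix, varied widely among ChC batches. Nfasc had 625, 57.3, 187 and 331 CPM in ChC batches 1 to 4 and 473, 462, 465 and 352 CPM in Pv batches 5 to 8. Batches 1 and 2, from the same animal, were the highest and the lowest of all 8, whereas the Pv batches lay between them, with batch 8 below the other Pv batches. The means were 300.1 ± 244 and 438 ± 57.3 CPM (SD, n = 4 each), with a log2 fold change of -0.69 (SE 0.61, adjusted p = 0.976 in edgeR). Without ChC batch 1 the ChC mean was 192 CPM, and without ChC batch 2 the log2 fold change was 0.077. Without batch 6 the Pv mean was 430 ± 67.4 CPM (SD, n = 3) and the log2 fold change -0.74.

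NrCAM, a second adhesion molecule that ankyrin G anchors, was higher in most ChC batches. Nrcam had 42.7, 223, 382 and 221 CPM in ChC batches 1 to 4 and 23.2, 19.1, 159 and 80.1 CPM in Pv batches 5 to 8. In 3 of the 4 ChC batches it lay above every Pv batch, while ChC batch 1 lay below Pv batches 7 and 8. The means were 217 ± 139 and 70.4 ± 65.5 CPM (SD, n = 4 each), and the log2 fold change was 1.95 (SE 1.03, adjusted p = 0.865 in edgeR), with a range of 1.19 to 3.50 and adjusted p from 0.267 to 1.00 over 21 alternatives. The Pv mean was 40.8 CPM without batch 7, and 87.5 ± 68.4 CPM (SD, n = 3) without batch 6, where the log2 fold change was 1.89. Without ChC batch 3 the ChC mean was 162 CPM and the log2 fold change 1.60.

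Of the intracellular FGFs, Fgf12 was present in nearly every cell. It had 890.0, 805, 1253 and 679 CPM in ChC batches 1 to 4 and 917, 438, 608 and 684 CPM in Pv batches 5 to 8. ChC batch 3 stood highest and Pv batch 6 lowest, with the other 6 batches of both types intermixed. The means were 907 ± 247 and 662 ± 199 CPM (SD, n = 4 each), with a log2 fold change of 0.54 (SE 0.50, adjusted p = 0.984 in edgeR). Leaving out batch 6 gave a Pv mean of 736 ± 161 CPM (SD, n = 3) and a log2 fold change of 0.23, and leaving out batch 3 a ChC mean of 791 CPM and a log2 fold change of 0.22.

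Fgf13, the X-linked member, which also binds microtubules, had its highest batch at 50.4 times its lowest, which held 8 UMI. Its UMI were 194, 32, 174 and 178 in ChC batches 1 to 4 and 4, 12, 29 and 8 in Pv batches 5 to 8, or 414, 50.9, 57.7 and 134 CPM in ChC and 9.27, 25.4, 66.0 and 8.21 CPM in Pv. ChC batches 1 and 4 lay above every Pv batch, while batches 2 and 3 lay below Pv batch 7. The means were 164 ± 171 and 27.2 ± 27.04 CPM (SD, n = 4 each), so the SD was about as large as the mean in both types. The log2 fold change was 2.69 (SE 1.11, adjusted p = 0.756 in edgeR over 9829 genes). It was above 0 in all 21 alternatives, from 1.62 to 3.56 with adjusted p from 0.231 to 1.00. Without ChC batch 1 the ChC mean was 80.9 CPM and the log2 fold change 1.62, and without Pv batch 7 the Pv mean was 14.3 CPM. Without batch 6 the Pv mean was 27.8 ± 33.1 CPM (SD, n = 3) and the log2 fold change 2.96 (SE 1.28, adjusted p = 0.892 in edgeR). Without ChC batch 3 the ChC mean was 199.7 CPM and the log2 fold change 2.97.

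Fgf14, whose loss in humans and mice gives ataxia, had 662, 377, 375 and 356 CPM in ChC batches 1 to 4 and 220.1, 231, 774 and 427 CPM in Pv batches 5 to 8. Both batches of Pv animal 3 stood lowest and batch 7 of animal 4 highest, with all ChC batches inside that range. The means were 443 ± 146 and 413 ± 259 CPM (SD, n = 4 each), with a log2 fold change of 0.19 (SE 0.65, adjusted p = 0.999 in edgeR). The sign turned without animal 3 (-0.26) and without batch 8 (-0.18), and the value was -0.0030 without batch 1. Leaving out batch 6 gave a Pv mean of 474 ± 280.0 CPM (SD, n = 3) and a log2 fold change of 0.18.

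Fgf11, the remaining intracellular FGF, had 0 UMI in all 126 cells. With 3 counts as the limit that a count of 0 allows, this is up to 0.393 CPM of all UMI, between 1.04 and 8.10 CPM of a single batch, and 2.38% of cells with a UMI, as a limit of counting error only. Its single table row, on chromosome 11 from 69611704 to 69615127 of mm9 (minus strand), ends at the stop codon, 2134 bases short of the 3′ end that GENCODE (vM1) gives at 69609570. Rows with an NM accession whose gene name, chromosome and strand have a GENCODE stop codon were sorted by their end, and the remaining rows of the table were left out. Of these, 1709 end at a stop codon and 283 of them (16.6%) had a UMI, against 17071 of the 21141 that end elsewhere (80.7%). With poly(A)-primed reads, an absent message and a row without its 3′ end cannot be told apart for Fgf11, and the zeroes say nothing of its expression.

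**Figure D2:**
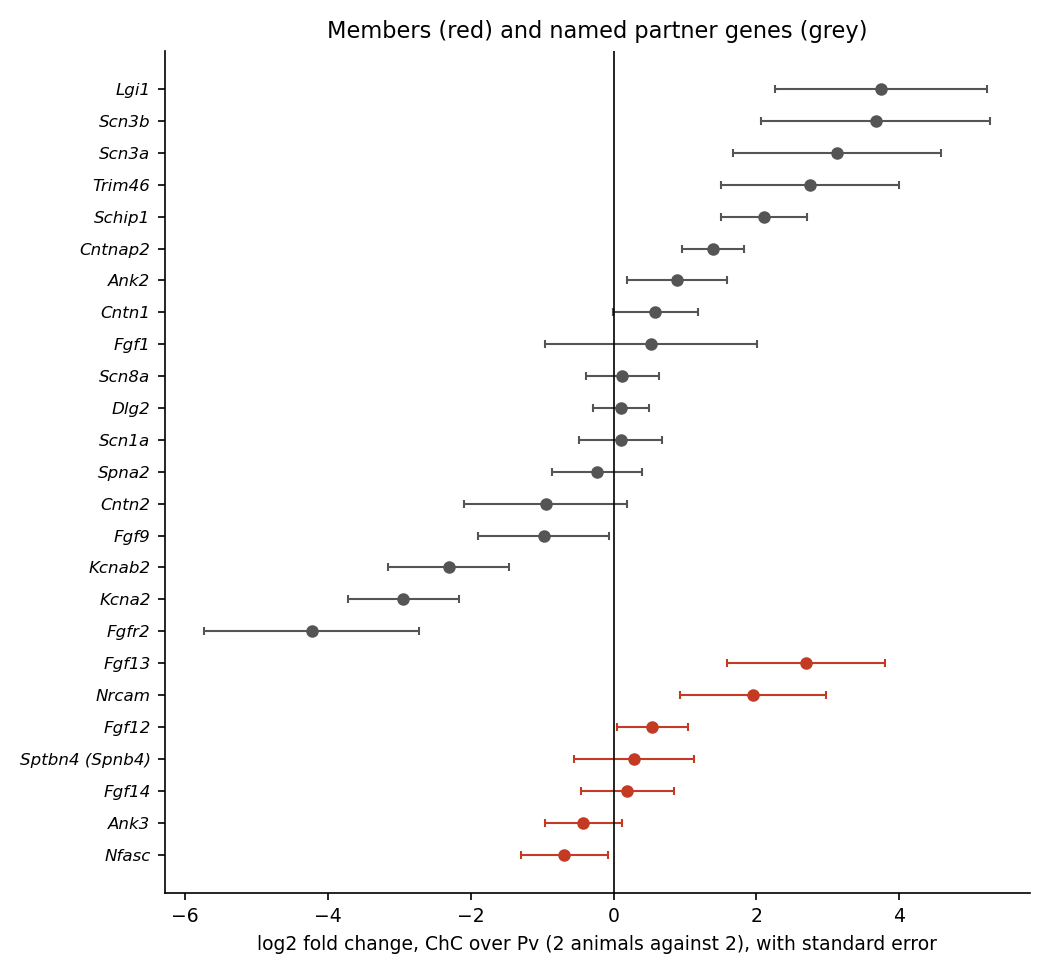
Log2 fold change of ChC over Pv (horizontal axis) for the 7 tested members (red) and the partner genes named in the text (grey), with lines of 1 SE to either side. Fgf13 at 2.69 and Nrcam at 1.95 stand highest of the members, Nfasc at -0.69 lowest, and no gene drawn passed an adjusted p of 0.05.

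The share of cells with a UMI separates how many cells held a message from how much they held, but it follows depth. Fgf13 had a UMI in 54 of 63 ChC cells (85.7%, 95% Clopper-Pearson interval 74.6% to 93.3%) and in 29 of 63 Pv cells (46.03%, 33.4% to 59.1%). These intervals take cells as independent and leave out the spread between batches and animals. Nrcam had a UMI in 55 of 63 ChC cells (87.3%) and in 41 of 63 Pv cells (65.1%). Without batch 6 these Pv shares were 43.8% for Fgf13 and 75.0% for Nrcam, of 48 cells.

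To set cells at equal depth, the share expected with each cell thinned to 10000 UMI was computed from the row with most UMI of each gene, since overlapping rows may repeat molecules, which for Fgf14 leaves out UMI that only its shorter row holds. At that depth Fgf13 was expected in 69.4% of 48 ChC and 25.6% of 55 Pv cells, and in 47.8% and 15.4% at 5000 UMI. By batch, the Fgf13 share at 10000 UMI was 98.7%, 47.4%, 54.1% and 75.7% in ChC and 8.59%, 24.7%, 62.7% and 11.2% in Pv. Pv batch 7 thus lay above ChC batches 2 and 3 and far above the other Pv batches. Nrcam was expected in 81.9% of ChC and 48.7% of Pv cells, and Nfasc in 66.2% and 85.9%. The remaining members differed less, with Ank3 at 96.2% and 98.5%, Spnb4 at 44.5% and 39.01%, Fgf12 at 99.8% and 97.1%, and Fgf14 at 82.0% and 75.6% in ChC and Pv. For Fgf14 the direction was the reverse over all 63 cells of each type, where 84.1% of ChC and 93.7% of Pv cells had a UMI of the summed rows, and 69.8% and 74.6% one of the largest row. Thinning can only lower a share, so the higher ChC value at 10000 UMI goes with the shallow cells left out there.

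Shares of genes that neither cell type should express were set beside these. Of 35 markers of pyramidal, glial and endothelial cells, 11 had no UMI in ChC and 14 none in Pv, and an all-zero row may lack its 3′ end, so no typical share is drawn from them. Highest in Pv was Camk2a, at 96.8% of cells. In ChC, Camk2a and Slc1a2 shared the highest value (77.8%), and at 10000 UMI Slc1a2 was ahead (67.8% against 59.5%). Slc17a7, the glutamate transporter of pyramidal cells, had a UMI in 34.9% of ChC and 44.4% of Pv cells, or 23.8% and 31.1% at 10000 UMI. At 10000 UMI the Fgf13 share in the 55 Pv cells of that depth (25.6%) lay below that of Slc17a7. Without thinning, over all 63 Pv cells, it lay above (46.03% against 44.4%). In ChC the Fgf13 share at 10000 UMI lay above that of Slc17a7 and close to that of Slc1a2 (69.4% against 67.8%). Without thinning, the ChC share of Fgf13 lay above that of Camk2a. Slc17a7 had 3, 0, 110 and 21 UMI in Pv batches 5 to 8, so its Pv share comes mostly from batches 7 and 8, and in batch 6 Fgf13 was in 8 of 15 cells and Slc17a7 in 0. Whether the Fgf13 UMI of Pv cells are above background was not settled. The Camk2a share in Pv cells was as high as or higher than that of each member except Ank3, so a share alone does not show expression. At 10000 UMI Camk2a was expected in 59.5% of ChC and 83.8% of Pv cells, and in Pv Ank3, Fgf12 and Nfasc lay above it. The Fgf13 shares by batch were 100%, 62.5%, 87.5% and 93.3% in ChC batches 1 to 4 and 18.8%, 53.3%, 68.8% and 43.8% in Pv batches 5 to 8. Those of Nrcam were 68.8%, 87.5%, 100% and 93.3% in ChC and 43.8%, 33.3%, 93.8% and 87.5% in Pv. The lower Pv share of Nrcam before thinning thus came from batches 5 and 6 of animal 3. With cells thinned to 10000 UMI, Nrcam was expected in 93.1%, 98.9% and 94.6% of cells in ChC batches 2 to 4. Every Pv batch lay below these, with batch 7 at 92.2%, batch 8 at 57.9% and batches 5 and 6 lowest. ChC batch 1, at 34.9%, lay below Pv batches 7 and 8.

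**Figure D3:**
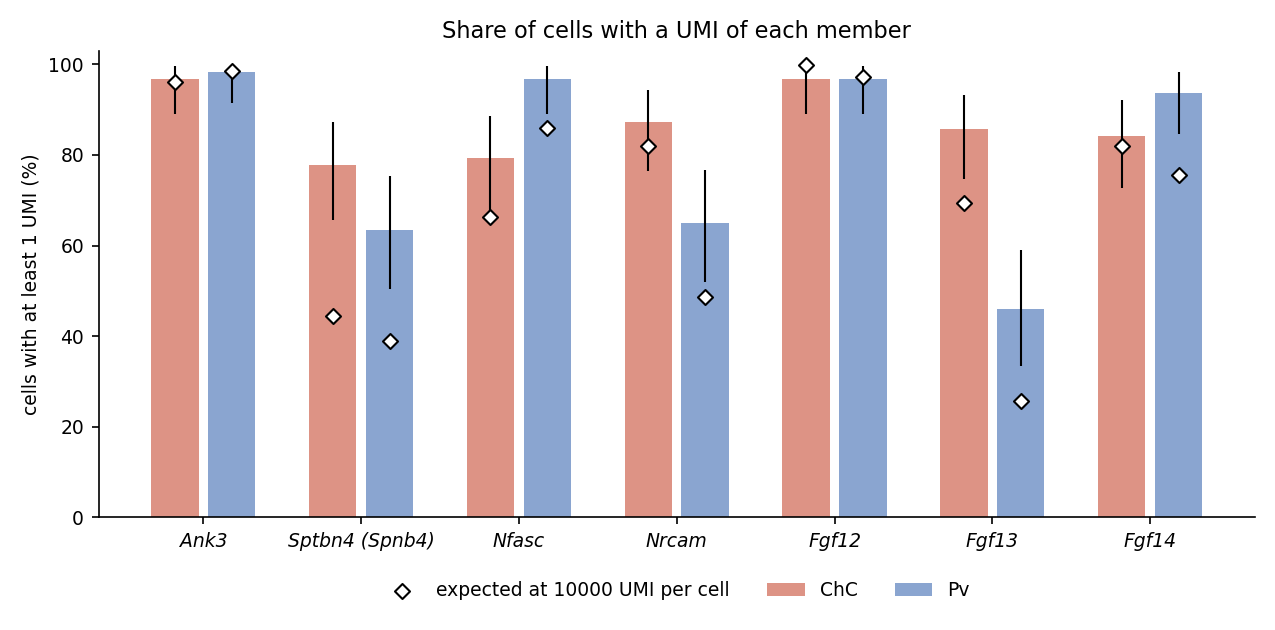
Percent of cells with a UMI of each of the 7 members found (vertical axis) in 63 ChC and 63 Pv cells, as bars with 95% Clopper-Pearson intervals over cells, which leave out the spread between batches and animals, and as diamonds the share expected at 10000 UMI per cell from the row with most UMI of each gene. Fgf13 is found in 85.7% of ChC and 46.03% of Pv cells, and Nrcam in 87.3% and 65.1%.

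Counted together, the 3 intracellular FGFs with a UMI were all present in 49 of 63 ChC and 26 of 63 Pv cells, and the 4 scaffold genes in 41 and 30 cells. Under 4 members were found in 6 ChC and 2 Pv cells, of which the deepest held 6371 and 10628 UMI. Depth therefore moves with the number of members per cell, and its part in the difference between types was not tested.

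Each gene name covers between 1 and 4 rows of RefSeq transcripts, and the rows of a gene end at or near the same 3′ base. Ank3 has a long row on chromosome 10 from 68996456 to 69490184 with 2689 UMI and a short one from 69388280 to 69490184 with 1191 UMI. Nfasc has 3 rows on chromosome 1 that end at 134461267 and start at 134638374, 134603903 and 134539435, with 913, 792 and 596 UMI. Spnb4 has 4 rows on chromosome 7 from 28141402, of which 3 carry the same 289 UMI in all 126 cells and the longest, to 28231608, carries 375. Fgf12 has 2 rows on chromosome 16, with 5154 UMI to 28753288 and 1983 UMI to 28445313. Nrcam (chromosome 12, 45429872 to 45702833) and Fgf13 (chromosome X, 56315328 to 56387613) have 1 row each, with 1773 and 631 UMI.

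Except for Fgf14, the longer row had at least as many UMI as the shorter row in each of the 126 cells, so a molecule may be counted in more than 1 row. By total UMI, the row of longest span had most in 1236 of 1316 genes (93.9%) of the table whose rows differ, Fgf14 among them. The added rows are therefore not numbers of molecules, and with the largest row alone the means in ChC and Pv were 71.9 and 52.99 CPM for Spnb4 (from 178 and 164) and 177 and 179 CPM for Nfasc (from 300.1 and 438). With the largest row the log2 fold change was -0.16 for Nfasc (from -0.69), -0.14 for Ank3 (from -0.43), 0.59 for Spnb4 (from 0.29), 0.84 for Fgf12 (from 0.54) and 0.047 for Fgf14 (from 0.19), while Fgf13 and Nrcam have a single row each.

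Fgf14 differed, since its shorter row had more UMI than its longer row in 21 cells, and the longer had more in 91. Its longer row, on chromosome 14 from 124377513 to 125076349 (minus strand), held 2549 UMI and the shorter, to 124591768, held 562 UMI. Of the Fgf14 UMI, the longer row held 57.7%, 94.5%, 77.5% and 92.2% in ChC batches 1 to 4 and 88.4%, 67.9%, 78.2% and 98.6% in Pv batches 5 to 8. ChC batch 1 stood lowest and Pv batch 8 highest, and the types overlapped. The rows differ in their first coding exon, which in this family sets the N-terminal form of the protein, and they share 552 coding bases at the 3′ end. The last 60 bases of each first coding exon are shown because they set the forms apart, from GENCODE (vM1, mm9, 5′ to 3′ on the minus strand).
Fgf14 shorter row, chr14:124591551-124591610: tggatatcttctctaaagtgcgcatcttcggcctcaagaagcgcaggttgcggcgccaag
Fgf14 longer row, chr14:125075732-125075791: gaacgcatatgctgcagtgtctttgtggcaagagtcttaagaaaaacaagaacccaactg
How reads were assigned among rows with a shared 3′ end is not stated, so the row shares are not read as shares of the forms.

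**Figure D4:**
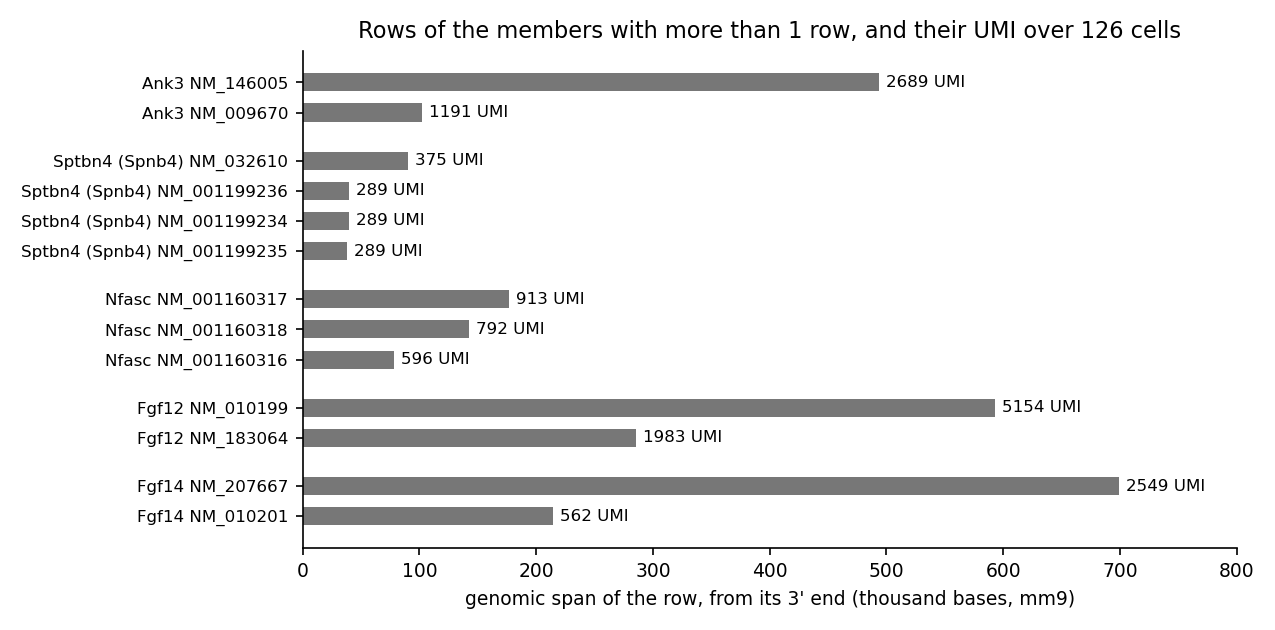
Genomic span of each table row in kb (horizontal axis) for the 5 members with several rows, with the UMI of the row over 126 cells written beside its bar. In each of these genes the longest row holds most UMI, with 2549 against 562 UMI in Fgf14.

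Behind the first exon the family is alike, and the second coding exon has 111 bases in all 4 intracellular FGFs. It is shown to compare the genes in a coding stretch of equal length. Where the poly(A)-primed reads lie was not examined, so identity in this exon does not show how well the counts tell the genes apart. Capitals mark the 57 bases that are the same in all 4 genes, from GENCODE (vM1, mm9, 5′ to 3′ on the minus strand).
Fgf11, chr11:69613168-69613278: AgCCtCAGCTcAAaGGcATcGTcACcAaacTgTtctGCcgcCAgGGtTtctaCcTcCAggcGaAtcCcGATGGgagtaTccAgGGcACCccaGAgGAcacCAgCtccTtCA
Fgf12, chr16:28398364-28398474: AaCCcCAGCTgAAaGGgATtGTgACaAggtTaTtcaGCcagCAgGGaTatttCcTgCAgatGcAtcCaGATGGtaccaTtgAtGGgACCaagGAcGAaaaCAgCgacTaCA
Fgf13, chrX:56385017-56385127: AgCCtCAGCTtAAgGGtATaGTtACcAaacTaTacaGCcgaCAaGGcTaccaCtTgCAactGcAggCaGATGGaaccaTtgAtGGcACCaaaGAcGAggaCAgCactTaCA
Fgf14, chr14:124535404-124535514: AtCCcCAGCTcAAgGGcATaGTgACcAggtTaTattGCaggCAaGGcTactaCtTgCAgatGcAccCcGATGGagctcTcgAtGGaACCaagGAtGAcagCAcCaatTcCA
Over the 6 pairs of genes, between 64.9% (Fgf11 with Fgf12 or with Fgf14) and 72.1% (Fgf14 with Fgf12 or with Fgf13) of the 111 bases were identical, and the longest identical run was between 5 and 11 bases.

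Within a batch, the spread of a member between cells was set against that of sampling at unequal depth. The measure was a chi-square per degree of freedom, comparing each cell's count with that set by its total UMI, in batches with at least 100 UMI of a gene's largest row, and depth alone gives about 1. The median over batches was 1.15 for Ank3 (7 batches), 1.20 for Nfasc (4 batches), 1.09 for Fgf12 (8 batches), 0.949 for Fgf13 (3 batches), 0.892 for Nrcam (3 batches) and 0.840 for Spnb4 (1 batch). Over all genes the batch medians lay between 0.991 and 1.25. Single batches lay higher, with Nfasc at 2.13 in batch 3 (percentile 96.5), Ank3 at 1.69, 1.84 and 1.88 in batches 6 to 8 (percentiles 86.4, 83.8 and 93.5) and Fgf12 at 1.82 in batch 6 (percentile 90.6). The largest row of Fgf14 stood apart at a median of 3.04 over 6 batches (range 0.884 to 7.97), at a median percentile of 96.9 among all genes measured. By batch it was 6.92, 2.09, 3.98 and 0.893 in ChC batches 1 to 4, and 7.97 and 0.884 in Pv batches 7 and 8. Fgf14 is the gene whose rows traded places between cells. UMI that only its shorter row holds are left out here, so these values are not the spread of the summed gene, which was not measured.

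Between batches, the highest summed level was 2.86 times the lowest for Fgf12, 3.20 times for Ank3, 3.52 times for Fgf14, 5.49 times for Spnb4, 10.9 times for Nfasc, 20.1 times for Nrcam and 50.4 times for Fgf13. These ratios include counting error, and the lowest batches of Nrcam and Fgf13 held 9 and 8 UMI. For Fgf14 the spread depends on the rows used, with ChC batches at 443 ± 146 CPM for the summed rows and 399 ± 46.9 CPM for the largest row (SD, n = 4 each), against 413 ± 259 and 401 ± 245 CPM in Pv.

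Co-expression of the members was described by Spearman's rho over the cells of each batch, averaged over 8 batches, where the cells of a batch share a library and differ in depth. In UMI, all 21 pairs had a mean rho above 0, from 0.385 to 0.851 (median 0.621), beside a median of 0.715 over the 1076778 pairs of 1468 genes found in 50% or more of each batch's cells. After division by cell depth (CPM), the 21 pairs lay between -0.161 and 0.247 (median -0.0064), with 10 above 0 and 0 pairs above 0 in all 8 batches. Over all pairs of the 1468 genes the median was 0.0268 and the 5th and 95th percentiles were -0.148 and 0.200. Nfasc and Fgf14 had the highest of the 6 pairs that could be ranked (0.149, percentile 87.8) and Ank3 and Nfasc the lowest (-0.161, percentile 3.87). In cells with at least 10000 UMI the median of the 21 pairs was -0.043. Nfasc and Fgf14 had 0.023 there and Ank3 with Fgf14 (0.090) was the highest of the 6, so the highest of the 6 rests on the cells used. Ank3 and Nfasc were again the lowest of the 6 (-0.193). Over the 21 pairs, Nfasc with Fgf13 was the highest both in all cells (0.247) and in the deeper cells (0.171). After that division the member pairs thus lay on both sides of 0.

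The genes most like each member by rho of CPM over the 8 batches were named for the 4 members that met the same limit. For Ank3 they were Csrnp3 (0.320), Ttll6 (0.305) and Slc8a1 (0.266). For Nfasc they were Arap2 (0.354), Tmod2 (0.348) and Copg (0.345). For Fgf12 they were Ntrk3 (0.348), Nlgn1 (0.337) and Gabrb1 (0.317), and for Fgf14 Cplx2 (0.338), Rnps1 (0.329) and Ptp4a2 (0.327). Each was picked as among the highest of the 1468 genes and is a description. Their SD over the 8 batches lay between 0.149 (Ntrk3) and 0.413 (Arap2, from -0.471 to 0.808). Csrnp3, Ttll6, Arap2, Nlgn1 and Cplx2 were above 0 in 7 of 8 batches, and the others in all 8.

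Genes that work with the members at the segment were followed through lists. Of the other ankyrins and spectrins, 6 of 7 were in the table, 6 were tested and 0 were called, 0 passed at an unadjusted p under 0.05, and the median log2 fold change was 0.11. Ank2, the ankyrin of the distal axon, was at 322 ± 162 CPM in ChC and 184 ± 76.1 CPM in Pv (SD, n = 4 each). Spna2, the alpha spectrin that pairs with beta IV spectrin, was at 259 ± 108 and 315 ± 99.9 CPM. Both overlapped between types.

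Of 6 adhesion partners of the L1 and contactin families 6 were tested and 0 were called. At an unadjusted p under 0.05, 1 passed (6.27% of all genes tested did), and 1 had batches that did not overlap. That gene was Cntnap2, which gathers Kv1 channels beside the initial segment and node. It had 3270, 3315, 2232 and 1877 CPM in ChC batches 1 to 4 and 1070, 1008, 1022 and 1018 CPM in Pv batches 5 to 8. Every ChC batch lay above every Pv batch, which holds for 2.62% of all genes tested in that direction, and the Pv batches lay close together. The log2 fold change was 1.39 (SE 0.43, adjusted p = 0.636 in edgeR). Cntn1 and Cntn2, contactins of axonal membrane, overlapped between types. Cntn1 had 1925, 468, 456 and 520 CPM in ChC and 459, 726, 405 and 446 CPM in Pv, so its higher ChC mean (842 against 509 CPM) rests on batch 1. Cntn2 was at 36.6 ± 16.1 CPM in ChC and 74.0 ± 54.2 CPM in Pv (SD, n = 4 each).

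Of 8 axonal sodium channel genes, whose proteins ankyrin G and the intracellular FGFs bind, 7 were tested, 0 were called and 0 passed at an unadjusted p under 0.05. Scn8a and Scn1a, pore subunits of the mature axon, were at 703 ± 187 and 391 ± 246 CPM in ChC and at 625 ± 137 and 375 ± 63.2 CPM in Pv (SD, n = 4 each). Scn3a, a pore subunit of immature neurons, had 76.8, 11.1, 29.5 and 34.7 CPM in ChC and 6.95, 2.12, 6.83 and 2.05 CPM in Pv. The accessory subunit Scn3b had 10.7, 164, 15.9 and 16.6 CPM in ChC and 2.32, 2.12, 9.11 and 5.13 CPM in Pv. These 2 were higher in all 4 ChC batches than in any Pv batch (background 2.62%), at log2 fold changes of 3.12 (SE 1.46) and 3.67 (SE 1.61), but each Pv batch held between 1 and 5 UMI of them.

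Among axonal potassium channel genes 0 were called and 2 passed at an unadjusted p under 0.05 (6.27% of all genes tested did), Kcna2 and Kcnab2, both higher in Pv. Kcna2, a Kv1 pore subunit, had 21.3, 143, 43.5 and 78.4 CPM in ChC batches 1 to 4 and 913, 678, 276 and 334 CPM in Pv batches 5 to 8. Kcnab2, the accessory Kv1 subunit, had 46.96, 31.8, 177 and 129 CPM in ChC and 537, 622, 421 and 438 CPM in Pv. In both genes every Pv batch lay above every ChC batch, as in 1.6% of all genes tested, with log2 fold changes of -2.94 (SE 0.77, adjusted p = 0.598 in edgeR) and -2.31 (SE 0.85, adjusted p = 0.715 in edgeR). Without animal 4, where edgeR called 100 genes, Kcna2 was among them.

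Of 16 cytoskeletal, kinase and scaffold partners 15 were in the table and tested, and 0 were called. The median log2 fold change was -0.05. At an unadjusted p under 0.05, where 6.27% of all genes tested passed, 2 of the 15 did, both higher in ChC. Those genes were Schip1, an ankyrin-binding protein of the segment, and Lgi1, a secreted ligand of axonal adhesion complexes. Schip1 had 785, 570, 1037 and 79.1 CPM in ChC and 81.1, 279, 392 and 29.8 CPM in Pv, so ChC batch 4 lay inside the Pv range (log2 fold change 2.11, SE 0.60). Lgi1 had 27.7, 224, 11.6 and 205 CPM in ChC and 0, 2.12, 20.5 and 11.3 CPM in Pv, with ChC batch 3 inside the Pv range (log2 fold change 3.74, SE 1.48). Trim46, which bundles microtubules of the proximal axon, reached 632 CPM in ChC batch 1 and had 0 UMI in batches 3 and 5, and Dlg2, a scaffold of Kv1 channels, was at 2014 ± 525 CPM in ChC and 2036 ± 923 CPM in Pv (SD, n = 4 each).

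Of the 18 secreted FGF genes, whose products signal through receptors, 9 had a UMI, 3 were tested, and 0 were called or passed at an unadjusted p under 0.05. Fgf9 was at 79.4 ± 37.02 CPM in ChC and 126 ± 72.8 CPM in Pv, and Fgf1 at 21.7 ± 16.5 and 20.7 ± 22.6 CPM (SD, n = 4 each). Of 4 FGF receptor genes 2 were tested and 0 were called. At an unadjusted p under 0.05, 1 (Fgfr2) passed, as did 6.27% of all genes tested. Fgfr2 had 6.40, 6.37, 1.33 and 4.52 CPM in ChC and 6.95, 231, 6.83 and 44.1 CPM in Pv, so the types did not overlap (as in 1.6% of all genes tested with Pv higher) but Pv batches 5 and 7 lay next to the ChC batches and batches 6 and 8 far above, with 109 UMI in batch 6 and 3, 3 and 43 in batches 5, 7 and 8. Fgfr3 had 432 of its UMI in 15 cells of Pv batch 8, 4 UMI in batch 7 and 0 UMI in the other 6 batches, so nearly all of it came from 1 batch.

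Marker lists gave counts of the same kind. Of 8 GABAergic markers 8 were tested and 0 were called. At an unadjusted p under 0.05, 2 (Erbb4 and Pvalb) passed, as did 6.27% of all genes tested. Of the other lists, 3 markers of other interneurons, 2 pyramidal, 1 oligodendrocyte, 4 astrocyte and 4 sex-linked genes were tested and 0 of each were called or passed at an unadjusted p under 0.05, while 0 precursor, microglial and endothelial markers had enough UMI to be tested.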

How the data were processed

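The authors aligned poly(A)-primed reads to mm9 with Bowtie 0.12.7 and kept a single count where reads of a gene repeated a varietal tag, and the deposited values are raw UMI counts per transcript row and cell. Cells were picked by hand and no doublet caller was run. The 2 cells without a UMI were left out, and rows of 1 gene name were summed. Replicate numbers only name samples.

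UMI were summed over the cells of each animal and compared, 2 ChC animals against 2 Pv animals, with edgeR 4.0.16 (TMM scaling, filterByExpr, quasi-likelihood test, two-sided, Benjamini-Hochberg adjustment, threshold 0.05) in R 4.3.3. The standard error is the log2 fold change divided by the root of the F statistic. Alternatives used DESeq2 1.42.0, limma 3.58.1 (voom, animal as random block), other scaling, row rules and filters, batches as samples, deep or thinned cells, and each batch or animal left out. The edgeR fits over animals and over batches were tested on simulated data, and the other methods were not. CPM are UMI of a batch per 1000000 UMI with TMM scaling between batches, with factors from 0.888 to 1.19. Thinned shares are exact hypergeometric expectations, and intervals are 95% Clopper-Pearson intervals computed with scipy 1.17.1. Other steps used Python 3.11.15, pandas 2.3.3, numpy 2.4.6 and matplotlib 3.10.9.

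The members and lists were chosen with earlier results of these data known. Of each list the 2 genes of highest mean level are named, with 1 exception that is not reported, with every gene called, and of the partner lists also the 2 tested genes of largest absolute log2 fold change. Genes most like a member are the 3 of highest mean rho. Values by batch of Fgfr3, Kdm5d, Ddx3y, Uty, Eif2s3y, Npy, Cntn1 and Slc17a7, and Pvalb, Sst and Vip, were singled out after their values were seen. Of 130 listed genes 3 were not in the table. Of 6 intracellular FGF rows 5 matched a GENCODE transcript by a row start within 1000 bases of its coding start. No protein table was at hand.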

Additional observations from a re-analysis of the deposited data

Results flagged for a closer look

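In each group of 4 batches, the level and the share of cells of each member with a UMI, and the total UMI, were examined for a batch far from the other 3. Of 30 such groups 8 held one, where chance gives about 1 in 20 for values without ties. By level, Ank3 was at 889 CPM in Pv batch 6, far above the other Pv batches, Nfasc at 352 CPM in Pv batch 8, far below them, and Fgf14 at 662 CPM in ChC batch 1, far above the other ChC batches. These levels are of summed rows, and with the largest row alone batch 6 was at 614 CPM of Ank3 beside 498 CPM in batch 7, batch 8 at 139 CPM of Nfasc beside 179.9 CPM in batch 6, and batch 1 at 450 CPM of Fgf14 beside 422 CPM in batch 2. By share of cells with a UMI, Ank3 was lowest at 93.8% in Pv batch 7, Nfasc at 56.2% in ChC batch 2 and at 86.7% in Pv batch 6, and Fgf12 at 87.5% in ChC batch 2 and at 86.7% in Pv batch 6. In 4 of these shares (Ank3 in Pv, Nfasc in Pv, and Fgf12 in both types) the other 3 batches were at 100%, where 1 or 2 cells decide the result and the rate of 1 in 20 does not apply. For Nfasc in ChC, batches 1 and 3 were tied at 87.5%, so the rate does not apply there either. The level and share of a gene come from the same UMI, so these are not independent.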

How the results depend on the processing

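All 21 alternatives to the comparison of ChC and Pv animals called 0 members. The count of genes called, 0 with edgeR, was 151 with DESeq2, 80 with no filter on low counts, 5 with batches as samples, 6 with animal as a random block and 1 in cells thinned to 10000 UMI, and between 0 and 100 with 1 batch or animal left out. The highest of these came without animal 4, where a lone animal is assumed to vary like the other group. Listed genes called were 0 with edgeR, 1 (Pvalb) with DESeq2, 2 (Fgfr3 and Pvalb) with no filter, 1 (Pvalb) with the random block, and between 0 and 2 with 1 batch or animal left out. The cause was not tested. The log2 fold change of a member kept its sign in 78 results that left out a batch or animal and turned in 6, and kept it in 62 other results and turned in 1. It turned for Spnb4 without animal 3 (-0.22), without batch 8 (-0.18) and in thinned cells (-0.075), for Nfasc without batch 2 (0.077), and for Fgf14 without animal 3 (-0.26), without batch 1 (-0.0030) and without batch 8 (-0.18). With 1 batch or animal left out it lay between -0.22 and 1.16 for Spnb4, -1.52 and 0.077 for Nfasc, and -0.26 and 0.91 for Fgf14. The median of all genes moved from 0.04 to -0.08, -0.30, 0.20 and 0.58 without animals 1 to 4, 0.17 and 0.11 without batches 5 and 6, 0.11 with no filter and 0.11 with the random block.

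Alternatives chosen after seeing the data were the largest row of each gene for levels and shares, a batch left out for levels and shares, and the count of genes whose batches do not overlap without batch 6. That count was 681 in place of 415 of the 9829 genes tested, with 0 members in both, and fewer Pv batches separate more easily. With the largest row, 2 of the mean levels moved by over 1 SD. No paired analysis was possible because the cell types come from different animals. Depth limits the shares of cells with a UMI. Of the shares recomputed by depth or row, 23 moved out of their 95% interval and 19 did not. With 1 batch left out, 5 moved out of it and 51 did not. Of the mean rank correlations recomputed from UMI or in cells with at least 10000 UMI, 20 moved by 1 SD over batches or more and 22 did not.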
